A study of Mus musculus with 6 samples.

Results

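The genes that make, break down and relay cyclic AMP were compared between islets of mice labelled as Nkx6.1 mutants and islets of control mice. The group was defined by gene name: adenylyl cyclases (Adcy and a number), phosphodiesterases (Pde), protein kinase A subunits (Prkac and Prkar), A-kinase anchoring proteins (Akap and a number), the Epac exchange factors Rapgef3 and Rapgef4, the G protein alpha subunits Gnas and Gnai1 to Gnai3, and the transcription effectors Creb1, Crem and Crtc1 to Crtc3. It held 63 of the 31829 gene names on the array, measured by 105 of 39429 probes. Of these, 59 genes with 92 probes were bright enough to be tested, out of 22775 genes and 28361 probes in all. A gene was tested when the scanner software had called a probe well above background on all 3 arrays of either group, and it was then represented by its probe with the highest mean signal. Adcy8, Adcy10, Akap3 and Akap14 were not tested for this reason: none of their probes was well above background on more than 1 array of a group. The file's name Akap2 is now Pakap, and 1 probe outside the group, named E430028B21Rik in the files, now has the symbol Pde12.

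Mutant mice were Nkx6.1 fl/-;Pdx1-CreERTM and control mice Nkx6.1 fl/+;Pdx1-CreERTM, so both carried the tamoxifen-activated recombinase and a floxed allele, and all were males of 6 weeks treated with tamoxifen, in 4 injections of 2 mg per 25 g from week 4. There were 3 mutant and 3 control RNA samples, labelled A to C in each group, each came from 2 pancreata, and the study describes them as biological replicates. The recombinase is driven by the Pdx1 promoter, which is active in the pancreas and strongest in beta cells. Mutants had a null allele before tamoxifen too, so its effect cannot be told apart from that of the induced deletion. The lines were on mixed FVB/N, C57Bl/6J and Cd1 backgrounds. Islets hold several cell types, and in such bulk RNA fewer cells of a type and less RNA per cell cannot be told apart.

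Cyclic AMP is made from ATP by adenylyl cyclases, which the stimulatory G protein (encoded by Gnas) activates and the inhibitory G proteins (Gnai) restrain. It acts through protein kinase A and the Epac proteins, and phosphodiesterases end the signal. In beta cells the incretin hormones raise cyclic AMP through the receptors Glp1r and Gipr, which amplifies insulin secretion at high glucose.

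Values are normalized log2 signals, where 0 is the 75th percentile of the array, and differences are mutant minus control on the log2 scale. Signals of different probes were not compared with each other. Nkx6-1 itself was 4.32, 4.06 and 4.45 on mutant arrays A to C, against 4.79, 4.85 and 4.64 on control arrays A to C. All mutant arrays lay below all control arrays, yet limma gave the difference of -0.48 (SE 0.14) an adjusted p of 0.131, which does not pass. This gene has 1 probe on the array. The labels do not name the deleted exons, so it is not known whether that probe falls within them. The share of probes well above background was 63.9% to 74.4% on mutant arrays and 73.4% to 76.3% on control arrays. On the linear intensity scale, before log2 and normalization, mutant arrays A and B had lowest background-corrected signals of 7.98 and 6.85. The other arrays had 2.31 to 3.31 on that linear scale. Mutant B, mutant C and control A shared slide 1, and mutant A, control B and control C shared slide 2. Relative to the control mean, the beta cell marker list was at -0.56, -0.63 and -0.61 on mutant arrays A to C and at -0.06 to 0.11 on control arrays, and 3 of its 9 genes fell (Slc2a2, Ucn3 and Slc30a8). The hormone genes of that list, Ins1, Ins2 and Iapp, did not pass and differed by 0.26, 0.25 and 0.26, the other way. The acinar list was at -0.75, 1.01 and 1.86 on mutant arrays A to C and at -0.26 to 0.34 on control arrays, the alpha cell list at 0.21 to 0.54 on mutant and -0.24 to 0.25 on control arrays, and the delta cell list at 0.25 to 0.75 on mutant and -0.40 to 0.30 on control arrays. None of the 12 acinar, 8 alpha and 5 delta cell genes passed at an adjusted p under 0.05 in limma. All 12 acinar genes were well above background on every array, and 6 of them, like Ins1, Gcg and Sst, had saturated pixels on at least 1 array. The mesenchyme list was at 0.29 to 0.52 on mutant arrays and at -0.48 to 0.74 on control arrays. The duct list was at 0.06 to 0.65 on mutant arrays and at -0.22 to 0.31 on control arrays. None of the tested genes of these lists passed. The part of the cell type differences in the results below was not tested.

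Of the 59 tested genes 3 (5.08%) passed at an adjusted p under 0.05 in mutant against control islets, against 2.53% of all genes tested (1.41% rose and 1.12% fell). The phosphodiesterases Pde4d and Pde6a rose and Pde6b fell, while 56 genes did not pass. Pde6b was tested only because it was above background in controls, and among genes well above background on all 6 arrays 2 of 55 passed (Pde4d and Pde6a), against 3.49% of all such genes. A fixed block for slide gave 2 of the 59 (Pde6b and Akap7), beside 2.94% of all genes. The Akap7 value comes from 1 of its 3 tested probes, which holds a GAA repeat run and is described below. The median difference over the 59 genes was -0.00, against -0.03 over all genes, with 29 above 0 and 30 below. The difference was smaller than 0.5 in size in 45 of the 59 and larger than 1 in 2, Akap7 and Pde6a. At an unadjusted p under 0.05 there were 17 of the 59 (28.8%), where 20.2% of all genes reached it, and all mutant arrays lay above all control arrays in 14 genes and below them in 7 (35.6% together), where the groups did not overlap in 26.3% of all genes. None of these shares was tested against that of all genes. The plot of differences by role shows the calls among the phosphodiesterases and none in the other roles.

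**Figure D1:**
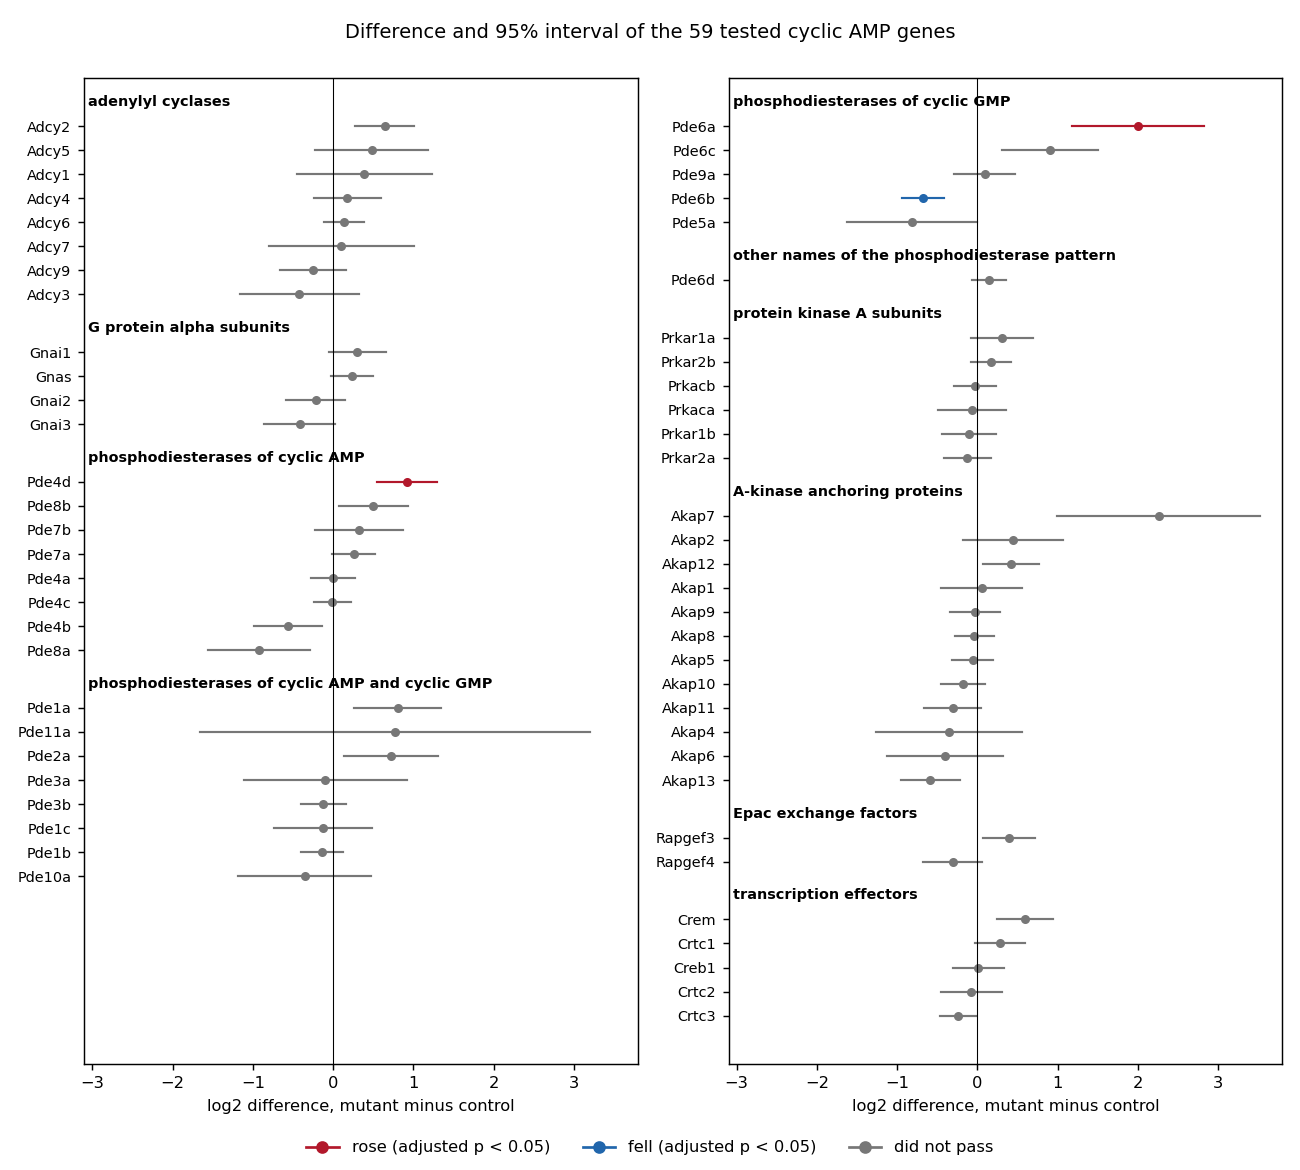
Difference between mutant and control islets (log2, horizontal axis) for the 59 tested genes, grouped by role, with points for limma's estimate and bars for its 95% interval over 3 mutant and 3 control arrays. Pde4d at 0.92 and Pde6a at 2.00 rose, Pde6b at -0.68 fell, and the intervals of most other genes include 0.

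Probes of Pde4d, Pde6b and Akap7 are shown because such differences rest on single short sequences of a gene. The single probe of Pde6a is not shown. All coordinates are those of the files on mm9, and bases are read 5′ to 3′ on the strand given. The Pde4d and the upstream Akap7 probes are given whole (60 bases) and the others by their first 30 bases. Capitals in the upstream Akap7 probe mark a run of 16 bases that repeats GAA, and nothing is marked in the others.
Pde4d, chr13:110741493-110741552, plus strand: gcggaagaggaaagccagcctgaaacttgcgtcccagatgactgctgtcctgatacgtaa
Pde6b, chr5:108856144-108856203, plus strand: caagttacatggctcctcaattctggaaag
Akap7 upstream, chr10:25003766-25003825, minus strand: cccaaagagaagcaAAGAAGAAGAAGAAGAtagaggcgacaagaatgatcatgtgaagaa
Akap7 downstream 1, chr10:24889928-24889987, minus strand: atgcctggtaaagtgtttatgaactctcag
Akap7 downstream 2, chr10:24888897-24888956, minus strand: gtattcctttatacggccctacgttttcat
The exon or UTR that each probe lies in was not looked up, as no annotation of that build was used here.

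Among the adenylyl cyclases, the enzymes that make cyclic AMP, 0 of 8 tested genes passed in limma. At an unadjusted p under 0.05 there was 1 (12.5%, beside 20.2% of all genes). That gene was Adcy2, a calcium-insensitive cyclase stimulated by G protein beta-gamma subunits. Adcy2 had signals of -4.20, -3.76 and -4.11 on mutant arrays A to C, against -4.56, -4.67 and -4.77 on control arrays. All mutant arrays lay above all control arrays, and the difference was 0.64 (SE 0.15, adjusted p = 0.0886). Adcy5, a calcium-inhibited cyclase linked to insulin secretion in human islets, averaged -3.85 ± 0.48 in mutants and -4.33 ± 0.33 in controls (SD, n = 3 each), and its 3 probes differed by 0.48, 0.58 and 0.66. The probe that differed by 0.66 separated the groups, with -4.71, -4.68 and -4.90 on mutant arrays and -5.35, -5.28 and -5.63 on control arrays, but it did not pass over all probes, of which 2.75% did (adjusted p = 0.0665). Adcy6 and Adcy9, cyclases found in many tissues, differed by 0.14 (95% interval -0.11 to 0.39) and -0.25 (-0.66 to 0.16). Adcy3, known from olfactory signalling, differed by -0.42 (-1.16 to 0.32) and was well above background on 2 of the 3 mutant arrays. Adcy1, Adcy4 and Adcy7 had differences of 0.39, 0.18 and 0.10. The only Adcy8 probe, for a calcium-stimulated cyclase, was well above background on 1 mutant and 1 control array.

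The G protein alpha subunits that drive or restrain these cyclases did not pass either (0 of 4). Gnas, the stimulatory subunit, had signals of 6.24, 6.41 and 6.32 on mutant arrays A to C, against 5.98, 6.19 and 6.09 on control arrays. The groups did not overlap, and the difference was 0.24 (SE 0.11, adjusted p = 0.291). The Gnas locus makes several transcripts from different promoters, and its other 3 probes differed by 0.56, 0.60 and 0.88. The one at 0.88 was at 4.08, 4.83 and 4.52 on mutant arrays and 3.74, 3.74 and 3.31 on control arrays (adjusted p over probes = 0.108). The inhibitory subunits Gnai1, Gnai2 and Gnai3 differed by 0.30, -0.22 and -0.42, with adjusted p of 0.316, 0.465 and 0.271.

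Of the 8 phosphodiesterases that break down cyclic AMP alone, Pde4d rose (12.5%, beside 2.53% of all genes called) and 7 did not pass. At an unadjusted p under 0.05 in limma there were 4 (50%, beside 20.2% of all genes). The groups did not overlap in 5 (62.5%, beside 26.3% of all genes). Pde4d had signals of -3.32, -3.25 and -3.42 on mutant arrays A to C, against -3.96, -4.44 and -4.36 on control arrays. Every mutant array was higher than every control array, and the signal was 1.89-fold higher in mutants (log2 difference 0.92, SE 0.15, adjusted p = 0.0448). On slide 1 alone the difference was 0.62, on slide 2 alone 1.08, and a slide block brought it to 0.85 (adjusted p = 0.0555). With normexp and quantile normalization it was 0.57 (adjusted p = 0.0629). Its family member Pde4b, the other way, was at -1.0, -0.94 and -1.10 on mutant arrays and at -0.62, -0.62 and -0.09 on control arrays. All mutant arrays were below all control arrays, with a difference of -0.57 (SE 0.17, adjusted p = 0.149), and a second Pde4b probe gave -0.58. Pde8a, a phosphodiesterase with a high affinity for cyclic AMP, was at -4.86, -5.35 and -5.65 on mutant arrays and at -4.72, -4.34 and -4.04 on control arrays, again without overlap (difference -0.92, SE 0.26, adjusted p = 0.128). Its relative Pde8b differed by 0.50 (SE 0.18, adjusted p = 0.195), or 0.77 on slide 1 and 0.12 on slide 2. Pde4a and Pde4c, the remaining family members of Pde4d, differed by -0.00 and -0.01, with 95% intervals of -0.28 to 0.27 and -0.24 to 0.22. Pde7a and Pde7b differed by 0.26 and 0.32.

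**Figure D2:**
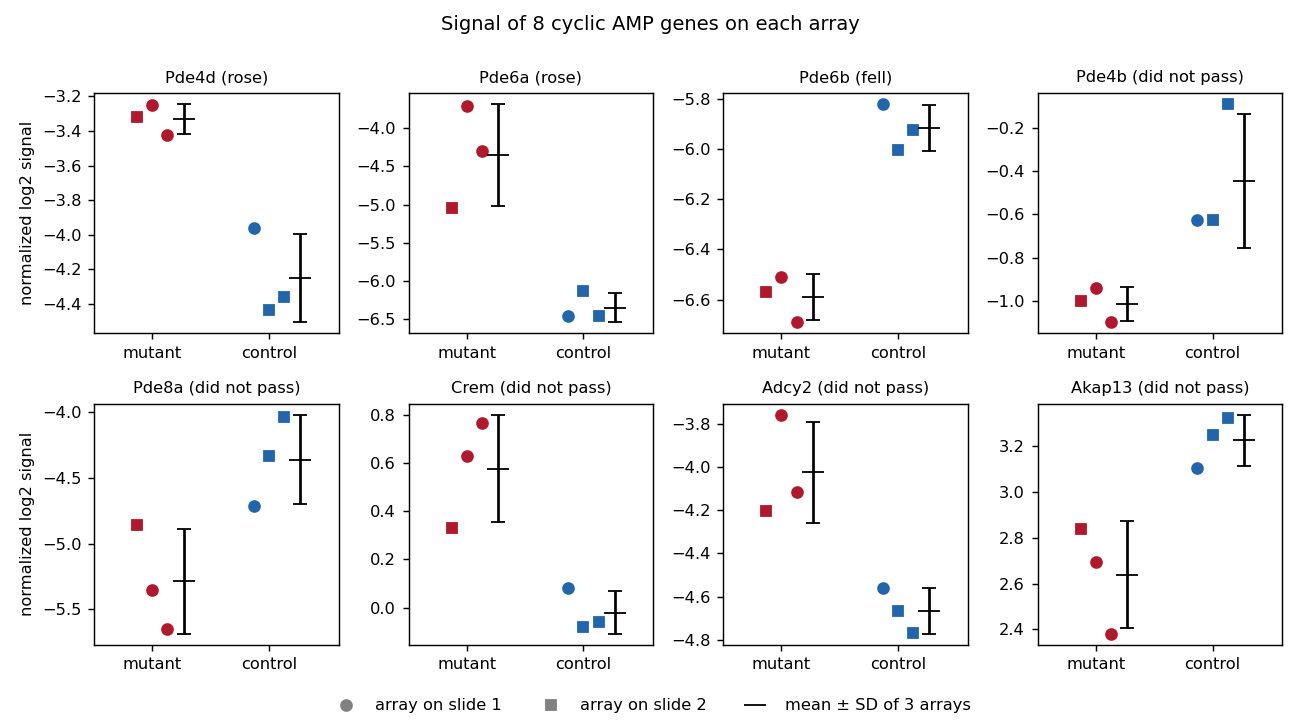
Normalized log2 signal (vertical axes, each with its own range) of 8 genes on the 3 mutant and 3 control arrays, with the mean ± SD of each group beside the points. Pde4d, Pde6a, Crem and Adcy2 are higher on all mutant arrays, and Pde6b, Pde4b, Pde8a and Akap13 are lower on all of them. Circles are arrays of slide 1 and squares are arrays of slide 2.

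The 8 phosphodiesterases that break down both cyclic AMP and cyclic GMP gave 0 calls in limma. At an unadjusted p under 0.05 there were 2 (25%, beside 20.2% of all genes). Pde1a, an enzyme activated by calcium and calmodulin, was at -4.00, -3.37 and -3.83 on mutant arrays A to C and at -4.23, -4.57 and -4.80 on control arrays. The mutant arrays were all higher, with a difference of 0.80 (SE 0.22, adjusted p = 0.122). Pde2a, which cyclic GMP activates, was at 0.39, 0.72 and 1.08 on mutant arrays and at 0.39, -0.16 and -0.20 on control arrays, where mutant A and control A met (difference 0.72, SE 0.24, adjusted p = 0.175). Pde3b, which cyclic GMP inhibits and which lowers cyclic AMP in beta cells, was close in both groups, at 2.77 ± 0.12 in mutants and 2.89 ± 0.09 in controls (SD, n = 3 each), with a difference of -0.12 (95% interval -0.40 to 0.16). Pde1c and Pde10a, both described in islets, differed by -0.13 (-0.73 to 0.48) and -0.35 (-1.18 to 0.47). Pde1b differed by -0.14 and Pde11a by 0.77, the last with the widest interval of the group (-1.66 to 3.20), its mutant arrays being at -6.79, -5.22 and -2.65. The 2 tested probes of Pde3a went opposite ways, with -0.10 for the brighter and 1.04 for the dimmer.

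The 5 phosphodiesterases of cyclic GMP held the other 2 calls (40%, beside 2.53% of all genes), of which Pde6b entered the test through the control arrays alone. At an unadjusted p under 0.05 in limma there were 4 (80%, beside 20.2% of all genes). The groups did not overlap in 3 (60%, beside 26.3% of all genes). Both calls concern the enzyme of rod photoreceptors rather than cyclic AMP: Pde6a and Pde6b are its catalytic subunits. Pde6a had signals of -5.04, -3.71 and -4.30 on mutant arrays A to C, against -6.46, -6.13 and -6.46 on control arrays. It was 3.99-fold higher in mutants, without overlap (log2 difference 2.00, SE 0.34, adjusted p = 0.0454). The difference was 2.45 on slide 1 alone and 1.25 on slide 2 alone, and a slide block ended the call (adjusted p = 0.0674). The difference was 1.06 and 0.96 under normexp with percentile and with quantile scaling, and 1.10 in the authors' deposited values, none of which passed. Normexp added an offset of 50 and the deposited values followed the median spot signal, so these sizes are on other scales than 2.00. Mutant arrays B and C, at 1.01 and 1.86 in the acinar list, were at -3.71 and -4.30 in Pde6a. Mutant A was the lowest of all arrays in that list, at -0.75, and its Pde6a signal lay above all control arrays. The part of that list in the result was not tested.

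Pde6b had signals of -6.57, -6.51 and -6.69 on mutant arrays, against -5.82, -6.00 and -5.92 on control arrays. It was well above background on 0 of 3 mutant arrays and on 3 of 3 control arrays, so only a bound can be given. On this scale it was at least 1.15-fold lower in mutants (measured means -6.59 in mutants and -5.91 in controls, log2 difference -0.68, SE 0.11, adjusted p = 0.0412). Since it entered the test through the control arrays alone, a difference in this direction was favoured. With slide as a block its adjusted p was 0.0455. Under normexp, a scale with an offset of 50, its difference was -0.02 with percentile and -0.17 with quantile scaling, and neither passed. In the deposited values, again on another scale, the difference was -0.24 and did not pass in limma (adjusted p = 0.288). Pde6b lies 6.77 Mb from the Nkx6-1 probe on chromosome 5. Within 10 Mb of that probe 10 of 189 tested genes passed (5.29%, 5 of them falls), against 34 of 1190 (2.86%) on the rest of the chromosome. FVB/N mice are known to carry a loss-of-function allele of Pde6b, and whether the genotype of this region differed between the groups was not tested. Over the other settings the adjusted p ran between 0.0305 and 0.173 for Pde6a and between 0.0387 and 0.937 for Pde6b.

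Pde6c, the catalytic subunit of the cone enzyme, was at -2.72, -2.67 and -3.15 on mutant arrays and at -3.63, -3.42 and -4.20 on control arrays, with a difference of 0.90 (SE 0.24, adjusted p = 0.120). Its second probe, at -4.05, -5.97 and -6.52 on mutant arrays and -6.31, -3.50 and -3.42 on control arrays, gave -1.10, so the probes of this gene contradict each other. Pde5a, the cyclic GMP enzyme of smooth muscle, was at -1.45, -0.39 and -1.51 on mutant arrays and at -0.01, -0.49 and -0.40 on control arrays (difference -0.82, SE 0.33, adjusted p = 0.244), where mutant B lay among the controls. Pde9a differed by 0.09, and Pde6d, a carrier of lipid-modified proteins that breaks down no cyclic nucleotide, by 0.14.

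Protein kinase A, the main receptor of cyclic AMP, had 6 measured subunits, of which 0 passed in limma and 0 had an unadjusted p under 0.05. The catalytic subunits Prkaca and Prkacb differed by -0.07 (95% interval -0.49 to 0.36) and -0.03 (-0.30 to 0.23). Prkacb was at 5.36 ± 0.07 in mutants and 5.40 ± 0.11 in controls (SD, n = 3 each), and its groups overlapped. The regulatory subunits, which hold the kinase inactive until cyclic AMP binds, differed by 0.31 for Prkar1a (-0.08 to 0.69), -0.10 for Prkar1b (-0.45 to 0.24), -0.12 for Prkar2a (-0.41 to 0.16) and 0.17 for Prkar2b (-0.08 to 0.42). In all 6 subunits the intervals leave room for differences of up to 0.69 in size.

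A-kinase anchoring proteins hold protein kinase A at given places in the cell. Of 14 such genes 12 were tested and 0 passed in limma. The 3 at an unadjusted p under 0.05 (25%, beside 20.2% of all genes) were Akap7, Akap12 and Akap13. Akap13, which also activates the small GTPase RhoA, was at 2.84, 2.69 and 2.38 on mutant arrays A to C, against 3.1, 3.25 and 3.32 on control arrays. The mutant arrays were all lower, with a difference of -0.59 (SE 0.15, adjusted p = 0.106). Its other 2 probes separated the groups in the same direction, with differences of -0.67 and -0.57. Akap12, a scaffold at the plasma membrane, differed by 0.42 (SE 0.14, adjusted p = 0.184), or 0.12 on slide 1 and 0.66 on slide 2. Akap1, which anchors the kinase at mitochondria, differed by 0.06 (95% interval -0.45 to 0.56). The others, apart from Akap7, lay between -0.41 (Akap6) and 0.45 (Akap2).

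Akap7, which in heart muscle links protein kinase A to calcium handling, had the largest difference of the 59 genes, 2.26 (SE 0.52, adjusted p = 0.0870, and 0.0157 with slide as a block). That value comes from the upstream probe alone, at 1.09, 2.52 and 2.58 on mutant arrays A to C and at 0.58, -0.73 and -0.44 on control arrays. The downstream probes were at -0.79, -0.80 and -0.89, and at -0.44, -0.43 and -0.38, on mutant arrays, against -1.14, -0.96 and -0.91, and -0.96, -0.51 and -0.49, on control arrays. Both also separated the groups, but by only 0.18 and 0.23 (adjusted p over probes 0.414 and 0.439). The upstream probe holds the GAA run shown above, and probes with such a run moved together on these arrays. Of 97 tested probes with a GAA run of at least 11 bases, 87 (89.7%) were higher in mutants, with a median difference of 2.11, and 70 (72.2%) differed by more than 1. Of the 28264 other tested probes, 45.7% were higher in mutants, the median difference was -0.03 and 2.25% differed by more than 1. The mean of the 97 probes, relative to the control mean, was 0.88, 2.04 and 2.00 on mutant arrays A to C and 0.84, -0.56 and -0.28 on control arrays, so control A stood with mutant A. No other probe of the 92 has such a run. With these probes left out, an alternative chosen after seeing the data, Akap7 differed by 0.23 (adjusted p = 0.441). What moves the signal of these probes was not tested.

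**Figure D3:**
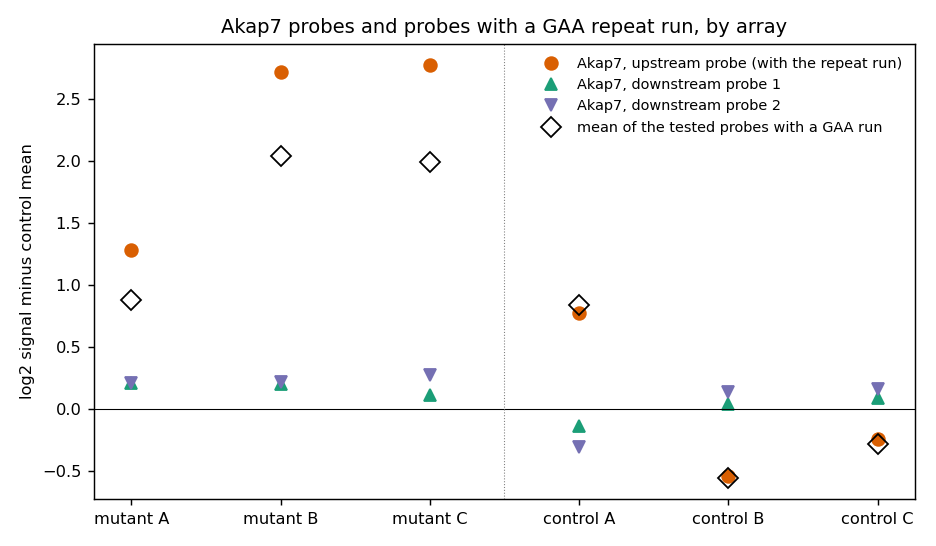
Log2 signal minus the control mean (vertical axis) on each array for the 3 Akap7 probes and for the mean of the 97 tested probes with a GAA run. The upstream probe follows the mean of the GAA probes across arrays, with mutant A and control A close together in that mean (0.88 and 0.84), while the downstream probes stay near 0.

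The Epac proteins, exchange factors that cyclic AMP activates directly, gave 0 calls of 2 in limma, with differences of opposite sign. Rapgef3 was at 0.08, -0.23 and -0.28 on mutant arrays A to C and at -0.43, -0.57 and -0.62 on control arrays, all mutant arrays being higher (difference 0.39, SE 0.14, adjusted p = 0.184). It came to 0.17 on slide 1 and 0.67 on slide 2. Rapgef4, the Epac protein that primes insulin granules for release, averaged -2.58 ± 0.21 in mutants and -2.27 ± 0.17 in controls (SD, n = 3 each), a difference of -0.31 (95% interval -0.68 to 0.06).

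Among the 5 transcription effectors 0 passed in limma, and Crem and Crtc3 reached an unadjusted p under 0.05 (40%, beside 20.2% of all genes). Crem encodes activators and repressors of cyclic AMP response elements, among them the inducible repressor ICER. It was at 0.33, 0.63 and 0.77 on mutant arrays A to C, against 0.08, -0.08 and -0.06 on control arrays. Every mutant array was higher, with a difference of 0.60 (SE 0.14, adjusted p = 0.0930), and a second tested probe, at -0.18, 0.04 and 0.13 on mutant and -0.54, -0.70 and -0.75 on control arrays, gave 0.66 (adjusted p over probes = 0.0580). Crtc3, a coactivator of CREB, was at 0.60, 0.49 and 0.55 on mutant arrays and 0.78, 0.75 and 0.81 on control arrays (difference -0.24, SE 0.09, adjusted p = 0.228). Crtc2, the coactivator best known in beta cells, differed by -0.08 (95% interval -0.46 to 0.30) and Crtc1 by 0.28. Creb1, the factor through which much of the transcriptional response runs, was at -2.99 ± 0.07 in mutants and -3.0 ± 0.19 in controls (SD, n = 3 each), a difference of 0.01 (-0.30 to 0.33). The full cyclic AMP response element, TGACGTCA (the same on both strands), was present between 250 bases before and 50 bases after the gene start in 1 of the 50 genes with a promoter sequence in RefSeq (GRCm38), Prkar1a. That is 2% of them, against 2.03% of the promoters of all genes in that table (549 of 27025), and it describes these windows alone.

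Where a gene had more than 1 tested probe, the probes could be set side by side. Of 25 such genes, 18 had probes of 1 sign, 19 had probes within 0.5 of each other, and the median spread was 0.21. The probes of 3 genes differed by more than 1, those of Akap7, Pde6c and Pde3a. Pde4d, Pde6a and Pde6b had 1 tested probe each, so no second sequence bears on them.

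**Figure D4:**
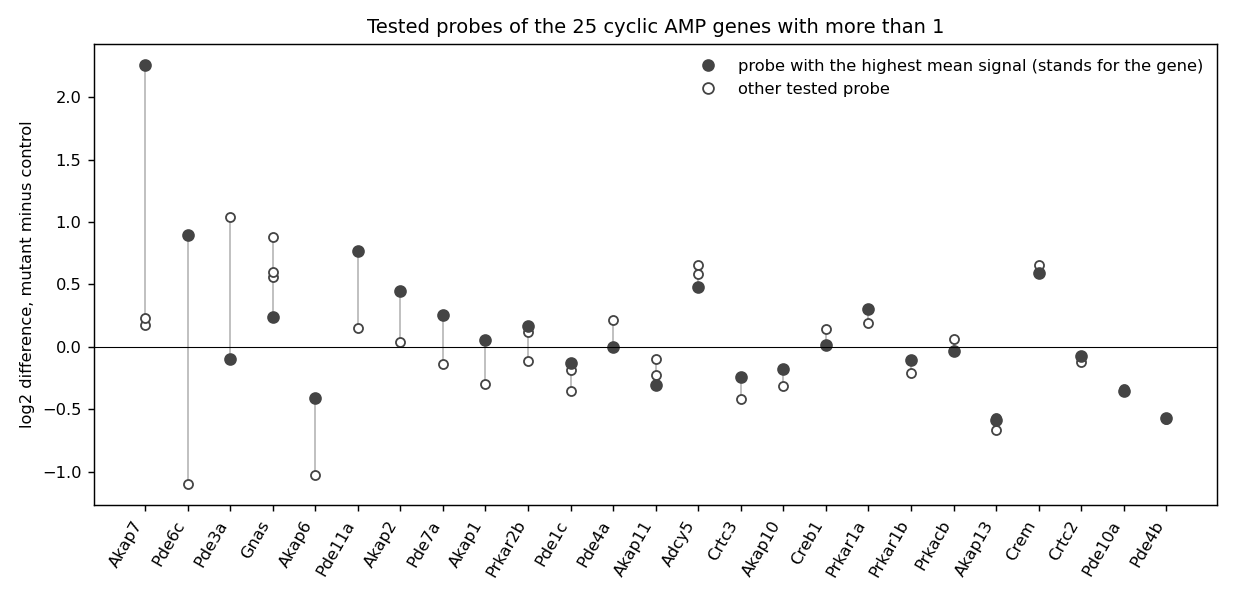
Difference between mutant and control islets (log2, vertical axis) of each tested probe of the 25 genes with more than 1, ordered by the spread between probes, with the brightest probe filled. The probes of Akap7, Pde6c and Pde3a lie more than 1 apart, and those of Crem, Akap13, Adcy5 and Pde4b lie close together on 1 side of 0.

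Receptors, targets and partners around this machinery were described in the same way. Of 85 further genes of the pathway, listed by role with earlier results of these data known, 77 were tested, 5 rose and 2 fell (9.09% together, against 2.53% of all genes), with a median difference of 0.05. Among stimulatory receptors and their ligand 1 of 14 rose and 1 fell. Gpr119, a receptor for lipid amides that raises cyclic AMP, was at 0.23, 0.45 and 0.59 on mutant arrays A to C and at -0.61, -0.62 and -0.53 on control arrays. It was 2.01-fold higher, without overlap (difference 1.01, SE 0.12, adjusted p = 0.0242). Vipr1, a receptor of vasoactive intestinal peptide and PACAP, was at 2.71, 2.76 and 2.69 on mutant arrays and at 3.56, 3.43 and 3.47 on control arrays, 1.70-fold lower (difference -0.77, SE 0.09, adjusted p = 0.0246). Of the incretin receptors, Glp1r was at -2.23, -2.15 and -2.21 on mutant arrays and at -2.03, -1.02 and -0.86 on control arrays, with control A close to the mutants. Its difference of -0.89 (SE 0.31, adjusted p = 0.191) did not pass. It passed in 1 of 22 other settings, that without control A (adjusted p = 0.0298). The Glp1r difference was -0.15 on slide 1 alone and -1.29 on slide 2 alone, and a slide block in limma gave an adjusted p of 0.224. Gipr differed by -0.13 (95% interval -0.96 to 0.71).

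Of 16 inhibitory receptors, which couple to Gnai proteins, 1 rose and 1 fell (12.5% together, beside 2.53% of all genes). Ptger3, a receptor of prostaglandin E, was at 0.07, 0.97 and 0.68 on mutant arrays and at -3.88, -3.86 and -3.32 on control arrays, a difference of 4.26 (SE 0.28, adjusted p = 0.00601). Adora1, an adenosine receptor, was at -0.56, -0.95 and -0.98 on mutant arrays and at 0.29, 0.87 and 1.01 on control arrays. It was 2.94-fold lower, without overlap (difference -1.56, SE 0.23, adjusted p = 0.0345). The adrenergic receptor Adra2a, which mediates the block of insulin secretion by catecholamines, was at 3.00, 3.03 and 2.80 on mutant arrays and at 3.36, 3.53 and 3.40 on control arrays, where the difference of -0.48 did not pass (SE 0.11, adjusted p = 0.0891).

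Among 10 tested genes known to respond to cyclic AMP in other tissues, 2 rose, Nr4a2 and Pck1 (20%, beside 1.41% of all genes). Among genes well above background on all 6 arrays, only Nr4a2 of this list passed. Nr4a2, a nuclear receptor of the immediate early class, was at 0.07, 0.23 and -0.27 on mutant arrays and at -1.15, -1.65 and -1.20 on control arrays (difference 1.35, SE 0.20, adjusted p = 0.0342, and 0.0568 with slide as a block). Pck1, the gluconeogenic enzyme, was at -5.68, -4.52 and -4.86 on mutant arrays and not well above background on any control array, and on this scale it was at least 4.54-fold higher in mutants (measured means -5.02 in mutants and -7.59 in controls, adjusted p = 0.0249). It entered the test through the mutant arrays alone, so a difference in this direction was favoured. Its log2 difference of 2.58 was 0.99 and 0.87 under normexp (offset 50) with percentile and with quantile scaling, both of which passed. Fosb, an immediate early gene named after its value was seen, differed by -0.79 (adjusted p = 0.0722) and passed with slide as a block (-0.68, adjusted p = 0.0389). The list had a median of -0.04, with 5 genes above and 5 below 0. Pde6h, the inhibitory subunit of the cone phosphodiesterase, was at -4.15, -4.44 and -4.88 on mutant arrays and at -5.97, -5.88 and -5.96 on control arrays, and it rose by 1.45 (SE 0.20, adjusted p = 0.0292). With the mean or the dimmest of its probes Pde6h lost the call (adjusted p = 0.0962 and 0.498), as it did under normexp with quantile scaling, at 0.67. Among the 73 pathway genes well above background on all 6 arrays, 5 rose and 2 fell, where 3.49% of all such genes passed. There Sik2, a salt-inducible kinase named after its value was seen, passed at 0.51, and Pck1 was not tested. None of the 7 other G protein subunits, 4 protein kinase A inhibitors and relative, 6 Epac partners, 6 CREB partners and salt-inducible kinases and 9 cyclic nucleotide gated or exporting proteins passed in limma at an adjusted p under 0.05.

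**Figure D5:**
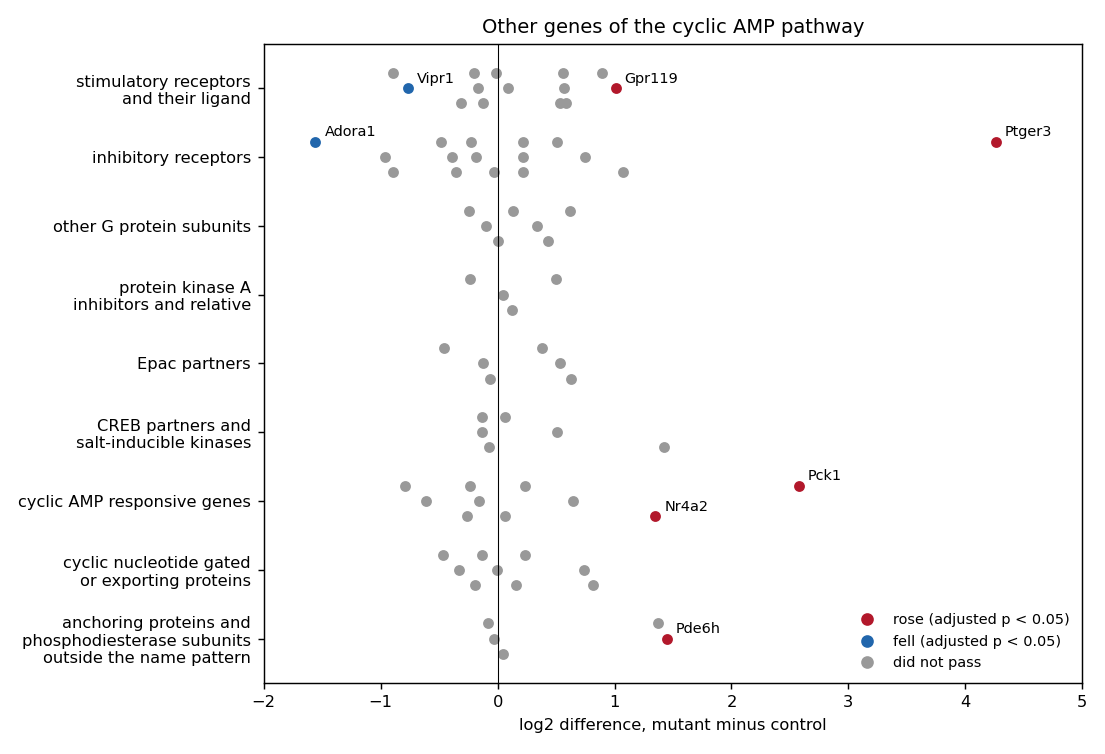
Difference between mutant and control islets (log2, horizontal axis) of the 77 other tested genes of the pathway, 1 point per gene, in rows by list. The 7 named genes passed at an adjusted p under 0.05, with Ptger3 at 4.26 the largest, and the lists of G protein subunits, Epac partners and gated or exporting proteins hold no call.

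The 3 calls among the cyclic AMP genes lay close to the threshold. Pde4d passed in 7 of 22 other settings, Pde6a in 8 of 22 and Pde6b in 6 of 21, and none of the 3 changed sign in any of them. These tallies include settings that could not change their values, since each of the 3 has 1 probe on the array. Those were the mean of probes, the dimmest probe, the test per probe and the GAA runs left out. All 3 passed in each of those. With 1 array left out at a time, whichever of the 6 it was, 0 or 1 of the 59 genes passed, and 0 to 4 of the other pathway genes did.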

How the data were processed

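RNA of 6 pooled islet samples was labelled with Cy3 and hybridised to single-colour Agilent mouse arrays. Per the file headers, the deposited spot intensity came from Agilent Feature Extraction 10.7.3.1, corrected for background and for trends within the array and left unscaled from array to array. Flags (other values) in these deposited files mark spots that are saturated, uneven or well above background. No spot of the cyclic AMP genes was saturated. The authors' second deposited table gives intensities on a linear scale, equalized between arrays. Its column medians were 272.8, 274.5 and 274.55 in mutants A to C and 270.15, 266.95 and 268.3 in controls A to C, its values followed each array's median spot signal at rank correlations of at least 0.999, and its equalization method is not given in the sources used here, while scale (linear) and direction were clear and no centring was seen. It served as an alternative.

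Intensities were taken to log2, averaged over the spots of a probe, and reduced by the 75th percentile of the non-control spots of each array. The comparison used limma 3.58.1 (R 4.3.3), a linear model with two-sided empirical Bayes tests fitted over all 22775 genes and adjusted over them by Benjamini-Hochberg. A gene passed at an adjusted p under 0.05. Folds compare geometric means. Where no array of a group had a gene well above background, its fold is a bound, taken against the dimmest signal above background on those arrays (or its own signal, if brighter). Signal over background stands in for depth, and 3 arrays a group limit the precision. Slides were read from the array barcodes. The fit was tested on simulated data.

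The members, the other pathway genes and the marker lists were chosen with earlier results of these data known. The text names every member that passed or had an unadjusted p under 0.05, a list of members of known weight in islets in any case, the pathway genes that passed, and Glp1r, Gipr and Adra2a. Other members are given by value without such a rule. Accessions of all 63 members matched a table of mouse genes on GRCm38, used for symbols alone, and promoter windows came from RefSeq (GRCm38.p6). Both groups use the same replicate letters. Samples of 1 letter deviated from their group means at correlations of -0.23, -0.19 and -0.03. The mutant and control samples of each letter lay on different slides, so these correlations cannot show whether letters mark pairs. No label says that letters mark litters, so they were not used as pairs.

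Alternatives were normexp background correction (offset 50) with percentile or quantile scaling, quantile or median scaling, the deposited table, no filter or a filter on all 6 arrays, outlying spots removed, a block of slide or of replicate letter, robust estimation with a variance trend, the mean or the dimmest probe of a gene, a test per probe, an adjusted p under 0.1, a minimum of 1.5-fold, each array left out, and mutants A and B both left out. Probes with a GAA run left out were added after seeing the data. Differences under normexp with its offset and in the deposited table are on other scales than those of the main fit.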

Additional observations from a re-analysis of the deposited data

How the results depend on the processing

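The 3 calls among the cyclic AMP genes depended on the processing. Under normexp with either scaling, quantile or median scaling, the deposited table, no filter on dim probes, and without mutants A and B, 0 of them passed in limma, with 15 to 20 at an unadjusted p under 0.05. With a variance trend and robust estimation 1 passed, and at an adjusted p under 0.1 there were 6. With 1 array left out at a time the count was 0 to 1 (1 without mutant A or control A, 0 without any other array), against 13 to 418 over all genes, where 576 passed with every array, and 0 to 4 of the 7 other pathway genes. Over all genes the lowest count was that without control B and the highest that without control A. The pathway genes that passed numbered 11 with the variance trend, 4 with the dimmest probe and 14 at an adjusted p under 0.1, where all genes gave 1514. Without mutants A and B, 0 genes of any kind passed (3864 at an unadjusted p under 0.05), in a fit where the lone mutant sample is assumed to vary like the controls. With the letter as a replicate block 0 members, 0 pathway genes and 0 genes in all passed (15, 24 and 3163 at an unadjusted p under 0.05). No label says whether a letter marks a shared litter, so it is not known whether this block describes a real pairing. The other settings left these counts within 1.5 times, and no gene that passed changed sign. Of the 35 named genes that did not pass, 10 changed sign in at least 1 setting. Over the settings Pde6b, which was not well above background on any mutant array, ran between -0.78 and -0.02, and Pde8a between -1.28 and -0.39. The causes were not tested.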
